A study of Homo sapiens with 60 samples.

Results

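The mRNAs described here encode the subunits of the mitochondrial respiratory chain that are made from nuclear genes. They were followed through proximity labelling of nuclear domains in HEK293 cells, which derive from human embryonic kidney, of the Flp-In kind, made for integrating a transgene at a fixed site. Members were chosen by gene symbol alone, as the NDUFA, NDUFB, NDUFC, NDUFS, NDUFV and NDUFAB subunits, the UQCR, COX, SDH and ATP5 subunits, with pseudogenes left out. Of 125 symbols that matched, 46 were pseudogenes and 79 were members, out of 60590 gene rows. By complex, 37 members belong to complex I, 4 to complex II, 8 to complex III, 12 to complex IV (NDUFA4 is counted here) and 18 to complex V. A filter on low counts left 63 members to test: 30, 2, 7, 10 and 14 in that order.

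The respiratory chain passes electrons from NADH (complex I) and succinate (complex II) through complex III to oxygen at complex IV, and ATP synthase (complex V) uses the resulting proton gradient. A small set of its core subunits is made inside the mitochondrion, and all the others are translated in the cytosol and imported. Several of their promoters are known targets of NRF1 and of ETS-family factors. APEX2 is a peroxidase that, given biotin-phenol and hydrogen peroxide, puts biotin on RNA and protein close to the protein it is fused to.

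Each line stably carried 1 FLAG-APEX2 fusion or construct, and all lines share the HEK293 background. Labelling took 30 minutes of loading with biotin-phenol (500 µM), then 1 minute of peroxide (1 mM). The 14 baits were SRSF7, SRSF1 and RNPS1 (splicing factors of nuclear speckles), SAM68, PML and SP100 (PML bodies), SMN2, WRAP53 (a Cajal body protein), NPAT (histone locus body), FBL (nucleolus), LMNA (nuclear lamina), and the constructs labelled NLS, GFP and FLAG. For each bait there were 2 streptavidin pulldowns and 2 inputs (RNA before pulldown), 56 libraries of ribosome-depleted RNA in all. A second table held 4 SRSF7 pulldown libraries, 2 of ribosome-depleted and 2 of poly(A)-selected RNA. Whether a line was 1 clone, and whether replicates were separate cultures, is not given in the sources used here, so p-values cover no more than how these libraries vary, and that variation may be technical. In such bulk RNA, fewer cells of a kind and less RNA per cell cannot be told apart.

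Promoter windows of 6 members are shown as examples of motifs known at respiratory chain promoters; they were not chosen for a shared change. Of the 6, COX6B1 and UQCRQ passed the test of speckle against NLS below, NDUFB4, ATP5F1C and NDUFB7 did not, and SDHD had too few counts to test. In the RefSeq GRCh38.p14 table, 66 of the 79 members had a promoter, and the 250 bases before the start were searched on both strands. The NRF1 motif, the 10 letters in capitals in the first 3 windows, which read the same on both strands, was in 3 member promoters (4.55%) against 1.13% of all 27305. With its middle pair of letters free, a motif that includes the former, it was in 22.73% against 7.58%. The ETS motif CCGGAAG was in 25.76% against 8.82%, and the YY1 motif was in 1.52% against 0.36%. The median GC content of these 250 bases was 61.2% in members and 58.0% in all promoters. The first 3 windows are the NRF1 matches and the others are ETS matches (CTTCCGG is CCGGAAG read on the other strand). They lie, in order, at chr3:120596152-120596211 (plus strand), chr10:7788117-7788176 (plus), chr11:112086738-112086797 (plus), chr19:35648263-35648322 (plus), chr19:14572067-14572126 (minus) and chr5:132866563-132866622 (plus), all upstream of the transcript start. Capitals mark the motif.
NDUFB4: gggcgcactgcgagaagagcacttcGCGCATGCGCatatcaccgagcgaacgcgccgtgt
ATP5F1C: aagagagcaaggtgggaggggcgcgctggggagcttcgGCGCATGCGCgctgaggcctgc
SDHD: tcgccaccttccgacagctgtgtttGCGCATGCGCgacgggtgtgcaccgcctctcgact
COX6B1: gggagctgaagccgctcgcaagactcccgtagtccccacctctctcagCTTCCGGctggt
NDUFB7: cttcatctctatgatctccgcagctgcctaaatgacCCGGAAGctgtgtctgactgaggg
UQCRQ: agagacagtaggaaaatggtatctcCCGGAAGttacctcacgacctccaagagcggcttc

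Total counts ran from 14038645 to 56256915 in inputs and from 19280434 to 42097988 in pulldowns. The 7 HEK293 markers had a median of 1 CPM (counts scaled to library size with TMM factors) or more over the inputs, and none of 4 blood or 3 liver markers did. Of 4 striated muscle markers 1 did, ACTN2 at 34.9 CPM, and of 7 tissue-restricted subunit isoforms 1 did, NDUFA4L2 at 1.44 CPM. The muscle markers MYH7 and CKM had input medians of 0.025 and 0.0641 CPM, but reached 16.97 and 2.41 CPM in their highest input. Counts of the pseudogene rows RPS14P8 and RPS3AP21, not the labels, told 3 sets of libraries apart. Set I (16 libraries) consisted of inputs, those of RNPS1, SAM68, SP100, SMN2, WRAP53, NPAT, FBL and GFP. Set II (36 libraries) took in the remaining 12 inputs together with every pulldown but those of LMNA and GFP. The pulldowns of LMNA and GFP made up set III with the 4 libraries counted separately (8 libraries). Pulldown and input therefore came from 1 set for SRSF7, SRSF1, PML, NLS and FLAG alone. Between the inputs, 19 members were lower and 0 higher in set I than in set II (edgeR adjusted p under 0.05). The shares of all genes tested were 7.68% and 6.61%, and the members' median was -0.16 on the log2 scale. At an unadjusted p under 0.05, 34 members were lower and 0 higher, beside 3772 and 2961 of all 23681 genes. Input replicate 1 of FBL stood apart: its members lay a median of 0.686 (absolute log2) from the median input, at lowest -2.66. Mitochondrially encoded genes took 0.378% of its counts and 0.696% of those of NPAT input replicate 1, less than in any other input. SRSF1's 2 inputs lay 0.396 and 0.425 away and input replicate 1 of NPAT 0.343. Results are given without the FBL and NPAT libraries where that moved them.

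The respiratory chain mRNAs were low in the RNA labelled by the SR proteins SRSF1 and SRSF7, whose pulldowns and inputs shared a library set. The SRSF1 inputs were high in these mRNAs, with 8751.75 and 8538.54 CPM summed over the 63 tested members. The median input had 6402.76 CPM and the lowest 5245.07 CPM, and the SRSF1 pulldowns had 4549.66 and 4533.05 CPM. Values over input for SRSF1 take in the height of its inputs. COX6B1, a complex IV subunit on the intermembrane side, was at 281 and 275 CPM in the SRSF1 inputs and 92.8 and 97.7 CPM in the pulldowns. In SRSF7 it went from 249.6 and 219 CPM to 115 and 157 CPM. In both lines every pulldown lay below every input. Its log2 pulldown over input was -1.55 (SE 0.18, edgeR adjusted p = 2.6e-09) for SRSF1 and -0.79 (SE 0.17, edgeR adjusted p = 0.000355) for SRSF7. With SRSF1, 54 of 63 members were lower and 2 higher, against 22.5% and 28.5% of all genes, and the members' median log2 was -1.03 where that of all genes was 0.28. With SRSF7, 38 were lower and 3 higher, against 19.8% and 20.5%, with medians of -0.58 and 0.17. By gene span (under 5, 5 to 10, 10 to 30, and from 30 kb), 52.1%, 38%, 34.8% and 27.7% of coding genes were lower with SRSF1. Of the members in these bins, 12 of 12, 15 of 19, 21 of 23 and 6 of 9 were. With SRSF7 the shares were 40.7%, 30.8%, 28.6% and 27.1%, and the members 7, 10, 15 and 6.

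Every complex took part. With SRSF1, 24 of 30 complex I members, 2 of 2 of complex II, 5 of 7 of complex III, 9 of 10 of complex IV and 14 of 14 of complex V were lower. The deepest was COX5A, another complex IV subunit, at -2.20 (SE 0.16, edgeR adjusted p = 4.25e-14), from 211 and 199 CPM to 43.9 and 45.4 CPM. The catalytic head of ATP synthase fell too, with ATP5F1A (alpha) at -1.45 and ATP5F1B (beta) at -1.48. Of the small accessory subunits of complex I, NDUFB11 fell by 2.07 and NDUFA1 by 1.88 on the log2 scale. The RNPS1 pulldown, set against inputs of another library set, had 48 members lower and 2 higher (17.9% and 16.6% of all genes), with a median of -0.74. In the same span bins, 55.9%, 39%, 29.6% and 15.6% of coding genes were lower with RNPS1, and 11, 15, 18 and 4 members. SRSF7's count depended on single libraries: 18 were lower without its pulldown replicate 1 and 23 without its input replicate 1, and its replicates' medians were -0.84 and -0.32.

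**Figure D1:**
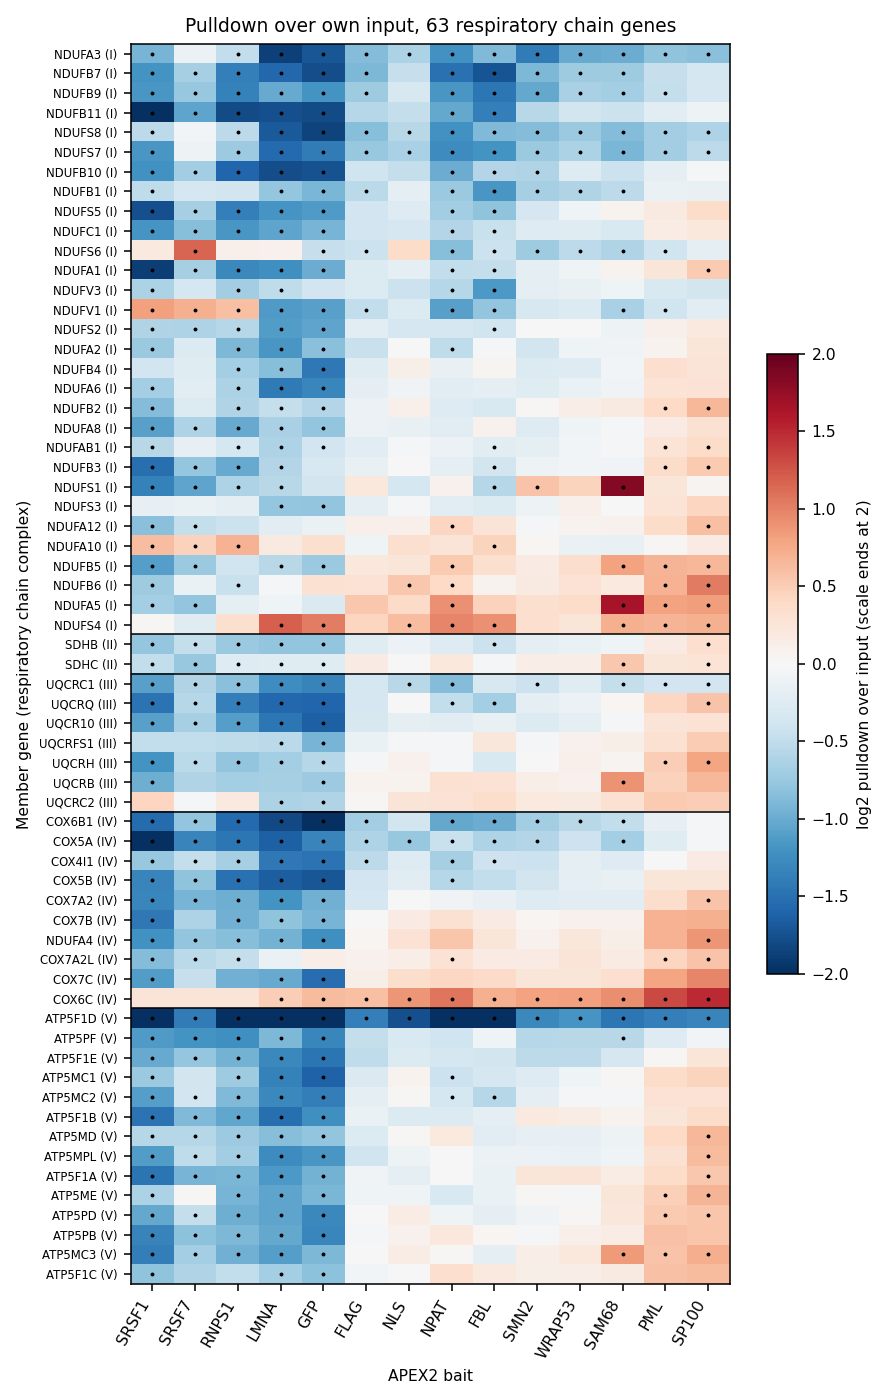
Log2 pulldown over own input (colour; the scale ends at 2 in either direction) for the 63 tested members (rows, by complex) in the 14 baits (columns); dots mark edgeR adjusted p under 0.05. The columns of SRSF1, RNPS1, LMNA and GFP are low over most rows, and the row of ATP5F1D is low in every column.

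The test of the difference set the mean of the 3 speckle baits against NLS, each pulldown over its own input. In it, 39 of 63 members were lower and 1 higher, where 7.45% of all genes were lower and 11.5% higher; the members' median was -0.68 and that of all genes 0.14. The complexes had medians of -0.63 (I), -0.52 (II), -0.77 (III), -0.96 (IV) and -0.75 (V). NDUFB3 was at 33.8 and 34.5 CPM in SRSF1 inputs and 11.6 and 12.5 CPM in SRSF1 pulldowns, while NLS inputs had 26.2 and 24.6 CPM and NLS pulldowns 23.5 and 27.7 CPM. The NLS groups overlapped and the SRSF1 groups did not. Its difference was -1.11 (SE 0.16, edgeR adjusted p = 2.52e-06). NDUFA1 had -1.10 (edgeR adjusted p = 4.44e-06). In complex III, UQCRH (the hinge protein) had -0.93 and UQCRQ -1.13. In complex IV, COX7A2 had -1.07 and COX7A2L, which takes part in supercomplexes, -0.75. In complex V, ATP5MC3 and ATP5MC2, 2 of the genes for the c subunit of the rotating ring, had -1.16 and -0.81.

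The difference was also seen without crossing library sets. With SRSF1 and SRSF7 alone against NLS, 37 members were lower and 1 higher (9.25% and 14.2% of all genes; median -0.70). With pulldowns alone inside set II and no input, 49 were lower and 2 higher (19.3% and 18% of all genes there; median -0.57). Without the FBL and NPAT inputs 47 were lower, while the share of all genes lower was 13.3% in that fit. The count was 25 without NLS pulldown replicate 2 and 26 without NLS input replicate 2. All comparisons with NLS share its 4 libraries.

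The share of reads in pseudogene rows named after members rose in the speckle pulldowns, and in those of LMNA too. Of the reads in these pseudogene rows and their parent members together, pseudogenes took 1.25% and 1.37% in SRSF1 inputs and 13.5% and 13.9% in SRSF1 pulldowns. They took 2.73% and 3.15% in SRSF7 inputs and 15.0% and 11.2% in its pulldowns, and 9.45% and 9.22% in RNPS1 pulldowns. In NLS they took 3.53% and 3.48% in inputs and 6.20% and 5.99% in pulldowns, so the speckle pulldowns lay above those of NLS. In LMNA they took 2.78% and 2.60% in inputs and 8.22% and 10.3% in pulldowns, also above those of NLS. In GFP they took 2.51% and 2.50% in inputs and 6.97% and 3.74% in pulldowns. Among the 25 tested members with no such pseudogene row, 12 were lower and 1 higher in speckle against NLS (median -0.58), and among the 38 with one, 27 were lower and 0 higher (median -0.79). The part of the pseudogene rows in the speckle and LMNA results was not tested further.

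NDUFV1, the NADH-binding flavoprotein of complex I, went against the other members. It was at 159 and 157 CPM in SRSF1 inputs and 281 and 279.8 CPM in SRSF1 pulldowns, and at 156 and 136 CPM in SRSF7 inputs and 241 and 236 CPM in SRSF7 pulldowns. In NLS it went from 131 and 138 CPM to 106 and 115 CPM, and in LMNA from 119.6 and 115 CPM to 53.5 and 53.5 CPM. The speckle pulldowns lay above their inputs and the NLS and LMNA pulldowns below theirs. Speckle against NLS was 0.99 (SE 0.18, edgeR adjusted p = 6.78e-05), and speckle against LMNA was 1.85 (SE 0.18, edgeR adjusted p = 1.58e-10). NDUFV1 spans 5.619 kb at chr11:67606936-67612554 (GRCh38.p14 gene span).

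NDUFA10, an accessory subunit, was higher than input in SRSF1 (0.62), RNPS1 (0.70) and SRSF7 (0.46), but its difference from NLS, 0.28, did not pass the test. NDUFS6, a zinc-binding accessory subunit, was higher with SRSF7 (1.16, SE 0.14, edgeR adjusted p = 1.86e-08), where pulldowns had 249 and 224 CPM and inputs 112 and 99.9 CPM. With SRSF1, NDUFS6 was at 101 and 112 CPM in pulldowns and 94.6 and 91.5 CPM in inputs, a log2 value of 0.19 that did not pass.

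**Figure D2:**
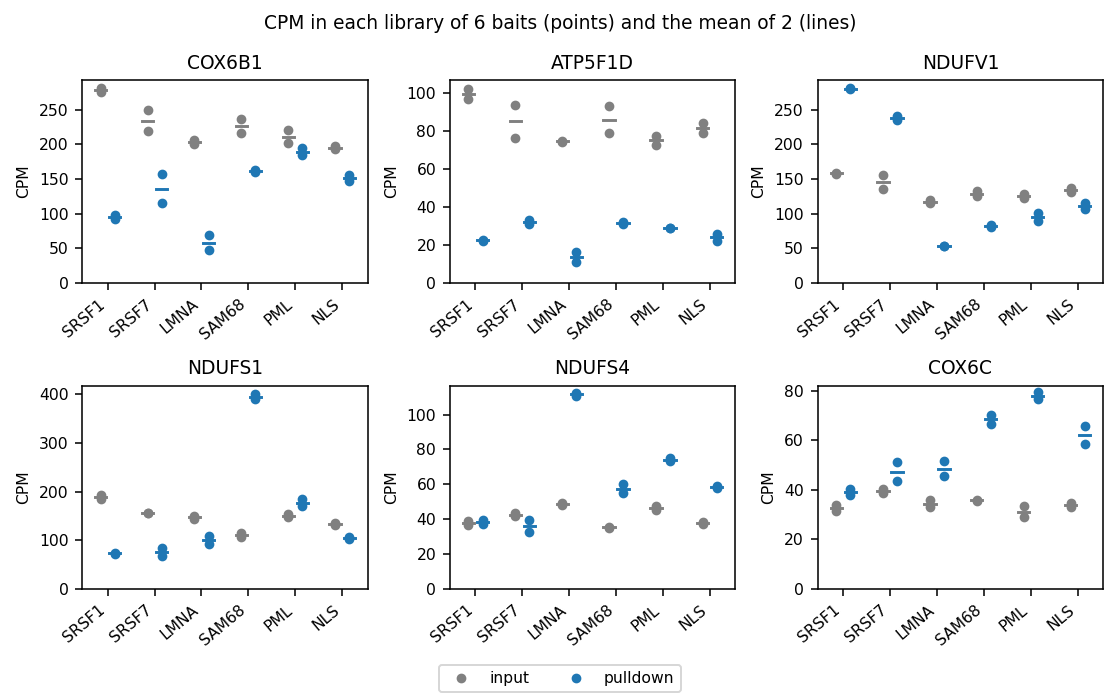
CPM of 6 members in each input (grey) and pulldown (blue) library of 6 baits, with lines at the mean of 2; each panel has its own axis from 0. NDUFV1 pulldowns lie above inputs for SRSF1 and SRSF7, NDUFS1 reaches 400.1 CPM in SAM68, and NDUFS4 is highest in LMNA pulldowns.

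These mRNAs were low in the LMNA pulldowns, which label RNA near the lamina. With LMNA 54 members were lower than input and 2 higher (27.6% and 28.1% of all genes), with a median of -1.03 against 0.10 for all genes. By gene span (under 5, 5 to 10, 10 to 30, and from 30 kb), 74.5%, 71.4%, 52.3% and 18.3% of coding genes were lower with LMNA. Of the members in these bins, 12 of 12, 19 of 19, 19 of 23 and 4 of 9 were. COX6B1 went from 206 and 200.0 CPM to 68.6 and 47.4 CPM, with no overlap (-1.81, SE 0.18, edgeR adjusted p = 1.42e-10). Against NLS, 43 members were lower and 0 higher, where 8.56% and 7.14% of all genes were, and the median difference was -0.87. In the same span bins, 33.2%, 32.8%, 16.7% and 2.53% of coding genes were lower, and 10, 15, 16 and 2 members. At an unadjusted p under 0.05, 47 members were lower and 1 higher, beside 3644 and 3249 of all 23681 genes. DESeq2's Wald test called 40 lower and 1 higher. By complex, the 43 were 20 of 30, 1 of 2, 5 of 7, 6 of 10 and 11 of 14, from complex I to V. The 4 deepest were UQCRQ at -1.56 (SE 0.26, edgeR adjusted p = 0.000192), COX6B1 at -1.44, ATP5MC1 at -1.43 and COX5B at -1.43.

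GFP gave a similar picture: 53 members were lower than input and 2 higher (27% and 26.4%), with a median of -0.96. In the same span bins, 75.2%, 71.6%, 53.7% and 14.6% of coding genes were lower with GFP, and 12, 19, 19 and 3 members. GFP has no test against LMNA here. Both of these pulldowns, and no other of the 14 baits, came from library set III while their inputs did not, so bait and library set cannot be told apart. SRSF7 ribosome-depleted pulldowns were counted in sets II and III: from set II to III the members' median changed by -0.69 and that of all genes by -0.11, in tables normalised separately. The LMNA against NLS count was 17 without LMNA pulldown replicate 2, 28 without LMNA input replicate 1, 26 without NLS pulldown replicate 2 and 58 without the FBL and NPAT inputs, where the share of all genes lower was 16.1%.

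Set directly against LMNA, the speckle baits had 17 members higher and 4 lower (21.1% and 15.4% of all genes), with a median of 0.16. By gene span (under 5, 5 to 10, 10 to 30, and from 30 kb), 40.8%, 52.3%, 38.5% and 10.7% of coding genes were higher. Of the members in these bins, 4 of 12, 5 of 19, 6 of 23 and 2 of 9 were. The LMNA pulldowns were of set III and the speckle pulldowns of set II, so bait and library set cannot be told apart. Members called higher included NDUFA3 (1.36), NDUFS8 (1.31) and NDUFS7 (0.90), the last 2 being iron-sulphur core subunits of complex I, and COX4I1 (0.80) and UQCRC2 (0.83). NDUFS4 was the deepest of the lower ones at -1.16, and the others were NDUFB3, COX7A2L and NDUFB6. With DESeq2's size factors in edgeR the split was 9 higher and 6 lower, with total counts 23 and 2, and 2 were lower without LMNA pulldown replicate 1 or LMNA input replicate 2. Those higher numbered 5 without LMNA pulldown replicate 2, 7 without LMNA input replicate 1, and 11 without LMNA input replicate 2, SRSF1 pulldown replicate 2, either SRSF1 input, SRSF7 input replicate 2, RNPS1 input replicate 2 or RNPS1 pulldown replicate 1.

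PML and SP100, the PML body baits, had members above their inputs more often than below. With PML, 13 were higher and 8 lower (9.92% and 15.1% of all genes), and with SP100, 23 were higher and 5 lower (11.4% and 16.5%). The medians were 0.27 and 0.37. The SP100 inputs were of set I and its pulldowns of set II, while all PML libraries were of set II. In set I inputs 59 of 63 members lay below their level in set II inputs, at a median of -0.16. The part of the library set in the SP100 values was not tested. COX6C, a complex IV subunit, was at 33.3 and 28.8 CPM in PML inputs and 79.3 and 76.4 CPM in PML pulldowns, with no overlap (1.32, SE 0.13, edgeR adjusted p = 3.84e-09). COX6C was higher than input in 11 of 14 baits, NLS among them. Its PML body against NLS difference did not pass (edgeR adjusted p = 0.0592). With SP100 it went from 28.1 and 26.4 CPM to 76.6 and 76.8 CPM (edgeR adjusted p = 2.04e-10). Also higher with both were the complex I members NDUFS4, NDUFA5, NDUFAB1, NDUFB2, NDUFB3, NDUFB5 and NDUFB6, and UQCRH, COX7A2L, ATP5MC3, ATP5ME and ATP5PD, while ATP5F1D, NDUFA3, NDUFS7, NDUFS8 and UQCRC1 were lower with both.

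The difference from NLS was small member by member. The median of PML body against NLS was 0.39 with 57 of 63 values above 0 (6 below), yet UQCRH (0.56, edgeR adjusted p = 0.0355) alone was called higher and NDUFS6 (-0.65, edgeR adjusted p = 0.0329) alone lower, where 1.04% and 1.9% of all genes were. At an unadjusted p under 0.05 there were 22 higher and 1 lower, beside 2345 and 2564 of all 23681 genes. Counts moved with the libraries and the scaling. They were 17 higher and 1 lower without the FBL and NPAT inputs (7.36% and 6.79% of all genes), 8 and 1 with DESeq2's size factors in edgeR, and 0 and 1 with total counts. With pulldowns alone inside set II they were 43 and 3 (22.3% and 19.2%; median 0.36), and the median for PML alone against NLS was 0.32. For PML over input, 4 were lower without any one of its 4 libraries; for SP100, 3 without pulldown or input replicate 1. Members higher than input numbered 6 without either PML pulldown, 9 without PML input replicate 1 and 3 without PML input replicate 2. For SP100 they numbered 11 without pulldown replicate 1 and 7 without input replicate 2. PML's split was 20 higher and 4 lower with total counts and 19 and 4 with DESeq2's size factors.

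**Figure D3:**
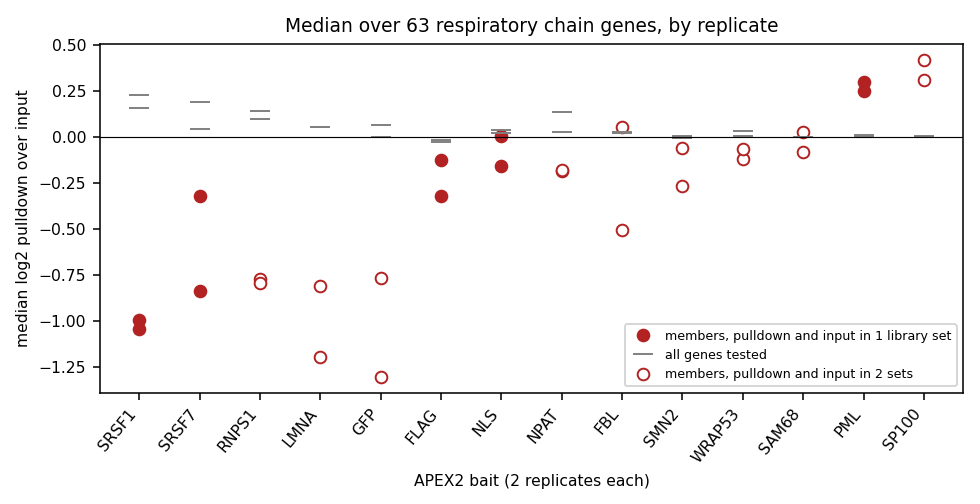
Median log2 pulldown over input of the 63 tested members in each replicate (points) of the 14 baits, filled where pulldown and input shared a library set, with grey dashes for the median of all genes tested. The SRSF1, RNPS1, LMNA and GFP points lie lowest, PML and SP100 lie above 0, and the FBL points are apart, at 0.06 and -0.50.

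SAM68, an RNA-binding protein of the STAR family, set a few members apart and left the median near 0 (-0.04; 0.03 with DESeq2's size factors). NDUFS1, the largest iron-sulphur subunit of complex I, was at 115 and 107 CPM in inputs and 400.1 and 391 CPM in pulldowns, far outside their spread. Its log2 value was 1.83 (SE 0.17, edgeR adjusted p = 1.55e-11), and against NLS it was 2.18 (SE 0.23, edgeR adjusted p = 1.97e-09). In NLS, NDUFS1 went from 136 and 132 CPM to 103 and 107 CPM. NDUFA5, an accessory subunit of the same arm, was at 50.4 and 49.8 CPM in SAM68 inputs and 150.0 and 163 CPM in pulldowns (against NLS 1.26, SE 0.39, edgeR adjusted p = 0.0189).

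In all, 8 members were higher and 13 lower with SAM68 than in its input (21.1% and 22% of all genes, so near the background). The other higher ones were COX6C, UQCRB, ATP5MC3, NDUFB5, NDUFS4 and SDHC. Against NLS, NDUFS1, NDUFA5, ATP5MC3 (0.69) and SDHC (0.54) were higher and NDUFS6 (-0.97) lower, where 12% and 7.8% of all genes were. With pulldowns alone inside set II, 14 were higher and 4 lower (21.8% and 22%). Total counts in place of TMM, which moved the median of all genes by -0.43 in this contrast, gave 1 higher and 13 lower against NLS and 7 and 22 over input.

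SMN2 and WRAP53 changed few members. With SMN2, 12 were lower and 2 higher (10.5% and 4.65% of all genes; medians of members -0.17 and of all genes 0.01). With WRAP53, 9 were lower and 1 higher (9.25% and 10.7%, median of members -0.09). By gene span (under 5, 5 to 10, 10 to 30, and from 30 kb), 27.1%, 23.9%, 20.3% and 6.75% of coding genes were lower with SMN2. Of the members in these bins, 3 of 12, 3 of 19, 6 of 23 and 0 of 9 were. With WRAP53 the shares were 19.6%, 20.7%, 17.3% and 6.44%, and the members 2, 3, 4 and 0. Against NLS, SMN2 had NDUFS6 (-1.07) and NDUFA3 (-0.76) lower and NDUFS1 (0.92) higher, against 2.1% and 4.23% of all genes; WRAP53 had NDUFS6 (-0.88) lower and NDUFS1 (0.79) higher, against 3.06% and 5.22%. With pulldowns alone inside set II, 14 were lower and 4 higher for SMN2 (17.9% and 19%), and 13 and 4 for WRAP53 (15.6% and 23.3%). Over input, SMN2 had 5 lower without pulldown replicate 1 and 7 without input replicate 2, and WRAP53 had 3 without pulldown replicate 1 and 5 without input replicate 1. Against NLS, 1 was lower for SMN2 without any one of the 8 libraries.

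NPAT had 24 members lower and 7 higher than input (23.4% and 23% of all genes), and FBL 25 and 3 (20.8% and 16.2%). Their medians were -0.23 each. By gene span (under 5, 5 to 10, 10 to 30, and from 30 kb), 63.6%, 56.8%, 42.5% and 15.1% of coding genes were lower with NPAT. Of the members in these bins, 9 of 12, 6 of 19, 9 of 23 and 0 of 9 were. With FBL the shares were 57.9%, 47.7%, 39% and 13.8%, and the members 6, 6, 11 and 2. The FBL inputs disagreed: COX7C, a complex IV subunit, was at 21.9 CPM in input replicate 1 and 158 CPM in input replicate 2, with 116 and 118 CPM in the pulldowns. The replicates' medians for FBL were 0.06 and -0.50. Against NLS, 4 were lower and 0 higher for each (3.05% and 1.16% of all genes for NPAT, 0.262% and 0.422% for FBL). At an unadjusted p under 0.05, 9 members were lower for NPAT and 15 for FBL, and 0 higher for either. Of all 23681 genes, 2746 were lower and 2039 higher for NPAT, and 1878 and 1492 for FBL. The 4 called for NPAT were NDUFS6 (-1.21), NDUFB9 (-0.85), NDUFV1 (-0.82) and NDUFS8 (-0.66). Those for FBL were NDUFB7 (-1.26), NDUFB9 (-1.12), NDUFB1 (-0.99) and NDUFS6 (-0.79). All of them are complex I subunits.

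The FBL calls against NLS hung on single libraries. Without input replicate 2, only the odd input replicate 1 was left for FBL, and members were called both lower and higher. Without both the FBL and NPAT inputs the median for FBL was -0.40. NPAT had 10 lower and 4 higher without its input replicate 2, and 1 or 2 without any other. With pulldowns alone inside set II, where the odd inputs play no part, 35 were lower and 4 higher for FBL (8.64% and 10.5% of all genes; median -0.36), and 18 and 2 for NPAT (14.4% and 19.2%). Over input, NPAT had 15 lower and 2 higher without input replicate 1, 14 higher without input replicate 2 and 3 higher without pulldown replicate 2. FBL had 15 lower without pulldown replicate 2 and 21 higher without input replicate 2; total counts gave 17 lower and 10 higher for NPAT and 16 and 5 for FBL.

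Some members were low in the pulldowns of every or nearly every bait, in several cases NLS and FLAG included. NLS had 6 members lower and 3 higher than input (14.5% and 8.09% of all genes), and FLAG 12 and 1 (9.21% and 1.72%). The medians were -0.04 (0.16 with total counts) and -0.22. By gene span (under 5, 5 to 10, 10 to 30, and from 30 kb), 41.5%, 34.7%, 26.1% and 13.1% of coding genes were lower with NLS. Of the members in these bins, 2 of 12, 1 of 19, 3 of 23 and 0 of 9 were. With FLAG the shares were 29.9%, 25.6%, 19.3% and 5.06%, and the members 2, 5, 5 and 0. ATP5F1D, the delta subunit of the F1 stalk, was at 79.0 and 84.2 CPM in NLS inputs and 22.4 and 25.7 CPM in NLS pulldowns (-1.76, SE 0.27, edgeR adjusted p = 4.59e-06). In FLAG it went from 63.3 and 70.3 CPM to 24.0 and 27.9 CPM (-1.37, SE 0.27, edgeR adjusted p = 0.000655). It was lower in 14 of 14 baits, from -2.45 (LMNA) to -1.18 (WRAP53), with a median of -1.60, and its speckle against NLS difference was -0.10 (edgeR adjusted p = 0.896).

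NDUFA3, an accessory subunit, was lower in 13 of 14 baits, with a median of -0.90. With LMNA it went from 25.7 and 23.3 CPM to 7.37 and 6.1 CPM (-1.86), and with SRSF7, the bait in which it did not pass, from 28.3 and 24.6 CPM to 24.5 and 24.5 CPM (-0.11). NDUFS7 and NDUFS8 were likewise lower in 13 of 14, and NDUFB9 in 12. UQCRC1, a core protein of complex III, COX6B1, COX5A and NDUFB7 were lower in 11 of 14. COX6B1 did not pass in NLS (edgeR adjusted p = 0.125), nor UQCRC1 in FLAG (edgeR adjusted p = 0.0913). COX6C was the reverse: it was higher than input in 11 of 14 baits, NLS among them (0.88, SE 0.13, edgeR adjusted p = 3.96e-06), with 34.7 and 33.0 CPM in inputs and 58.4 and 65.7 CPM in pulldowns. The FLAG count of 12 was 4 without input replicate 2, 6 without pulldown replicate 1 and 5 without pulldown replicate 2; NLS had 13 lower without the FBL and NPAT inputs (17.2% of all genes).

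Over the 5 baits with all libraries in set II, the mean pulldown over input had 42 members lower and 5 higher (24.9% and 30% of all genes), with a median of -0.29. By gene span (under 5, 5 to 10, 10 to 30, and from 30 kb), 60.4%, 47.6%, 39.8% and 27.1% of coding genes were lower. Of the members in these bins, 10 of 12, 11 of 19, 17 of 23 and 4 of 9 were. The 5 members called higher were COX6C (0.67), NDUFS4 (0.30), NDUFA10 (0.27), UQCRC2 (0.24) and NDUFS6 (0.18).

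Within each complex the members spread widely over the baits. In complex I the medians over 14 baits ran from -0.90 (NDUFA3) to 0.64 (NDUFS4). NDUFS4, an accessory subunit near the NADH-oxidising arm, was higher than input in 8 baits and lower in 0. With LMNA it rose from 49.2 and 48.4 CPM to 112 and 111 CPM (1.19, SE 0.16, edgeR adjusted p = 9.07e-08), and with NLS from 37.5 and 38.5 CPM to 57.6 and 58.8 CPM (0.61). With SRSF1 it was at 36.7 and 39.0 CPM in inputs and 37.1 and 39.5 CPM in pulldowns. Its speckle against NLS difference was -0.58 (edgeR adjusted p = 0.0244) and its LMNA against NLS difference 0.58 (edgeR adjusted p = 0.0792), which did not pass.

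Complex II had 2 tested members. SDHB, its iron-sulphur subunit, was at 118 and 117 CPM in SRSF1 inputs and 69.0 and 68.7 CPM in pulldowns (-0.77, SE 0.12), and at 100.2 and 95.3 CPM in NLS inputs and 87.3 and 93.1 CPM in pulldowns, again below but by less. SDHC, a membrane anchor, was at 133 and 132 CPM in SRSF1 inputs and 96.2 and 92.1 CPM in pulldowns (-0.49, SE 0.10), and at 120.4 and 124 CPM in SAM68 inputs and 181 and 175 CPM in pulldowns (0.55, SE 0.10, edgeR adjusted p = 1.97e-05). Speckle against NLS was -0.55 (edgeR adjusted p = 0.00304) for SDHB and -0.50 (edgeR adjusted p = 0.00148) for SDHC. LMNA against NLS was -0.67 (edgeR adjusted p = 0.00524) for SDHB and -0.24 (edgeR adjusted p = 0.264) for SDHC.

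In complex III the core proteins marked the ends, UQCRC1 at a median of -0.52 and UQCRC2 at 0.23. UQCRC1 was at 257 and 246 CPM in SRSF1 inputs and 118 and 118 CPM in pulldowns (-1.09, SE 0.13). UQCRC2 was at 193 and 187 CPM in SRSF1 inputs and 259 and 251 CPM in pulldowns, a value of 0.42 (SE 0.20) that did not pass, and LMNA against NLS was -0.88 (edgeR adjusted p = 0.0292). In complex IV the ends were COX6B1 (-0.74) and COX6C (0.76). In complex V they were ATP5F1D (-1.60) and ATP5F1C, the gamma shaft, at 0.06. ATP5F1C was at 197 and 202 CPM in SRSF1 inputs and 113 and 116 CPM in pulldowns (-0.81, SE 0.26, edgeR adjusted p = 0.00827), and at 159 and 141 CPM in PML inputs and 234 and 217 CPM in pulldowns (0.59, SE 0.26, edgeR adjusted p = 0.0851).

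Nearly every member was higher in poly(A)-selected RNA of the SRSF7 pulldown. Against ribosome-depleted RNA, 58 of 63 members were higher and 1 lower, where 27.3% and 26.5% of all 18641 genes were. The members' median was 1.02 and that of all genes 0.03. By gene span (under 5, 5 to 10, 10 to 30, and from 30 kb), 68.2%, 66.8%, 49.4% and 13.9% of coding genes were higher. Of the members in these bins, 12 of 12, 19 of 19, 22 of 23 and 5 of 9 were. ATP5ME, the e subunit of ATP synthase, was at 52.6 and 86 CPM in poly(A) libraries and 19.9 and 20.2 CPM in ribosome-depleted ones (1.79, SE 0.21, edgeR adjusted p = 0.000118). NDUFS5 was at 94.3 and 130 CPM against 35.1 and 32.9 CPM (1.72, SE 0.12, edgeR adjusted p = 3.36e-10). NDUFS4 alone was lower, at 61.8 and 70.2 CPM against 108 and 116 CPM (-0.77, SE 0.09, edgeR adjusted p = 6.82e-08). SDHC (-0.19), NDUFA10 (-0.18), NDUFS1 (0.10) and UQCRC1 (0.10) did not pass. SDHB was higher by 0.80. With any one of the 4 libraries left out, 56 or 57 were higher.

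The length of the gene span went along with several of these values. Over the 63 members, log2 LMNA against NLS and log2 span correlated with Pearson's r = 0.745 (Spearman's rho = 0.699), and over 15085 coding genes with 0.488 (rho = 0.658). The 12 members under 5 kb had a median of -1.27, and the 9 of 30 kb or more had -0.26, where coding genes of those lengths had -0.70 and 0.26. Over input, members had r = 0.714 for GFP and 0.71 for LMNA, the baits with pulldowns in library set III. In the other baits r over input ran from 0.069 (SRSF7) to 0.547 (RNPS1). Bait and library set cannot be told apart in the LMNA values. For poly(A) against ribosome-depleted RNA, r was -0.69 in members and -0.611 in coding genes, with members' medians of 1.16 under 5 kb and 0.31 from 30 kb. Coding genes of those lengths had 0.77 and -0.24. Speckle against NLS had r = 0.088 in members and -0.063 in coding genes. Its member medians were -0.73, -0.64, -0.81 and -0.58 in the bins under 5 kb, from 5 to 10 kb, from 10 to 30 kb and from 30 kb, while those of coding genes were 0.05, 0.25, 0.15 and -0.04. These correlations run across genes of the same libraries, and genes are not replicates. NDUFS4, at 123 kb, and NDUFA10, at 133 kb, are the longest of the 79 members.

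**Figure D4:**
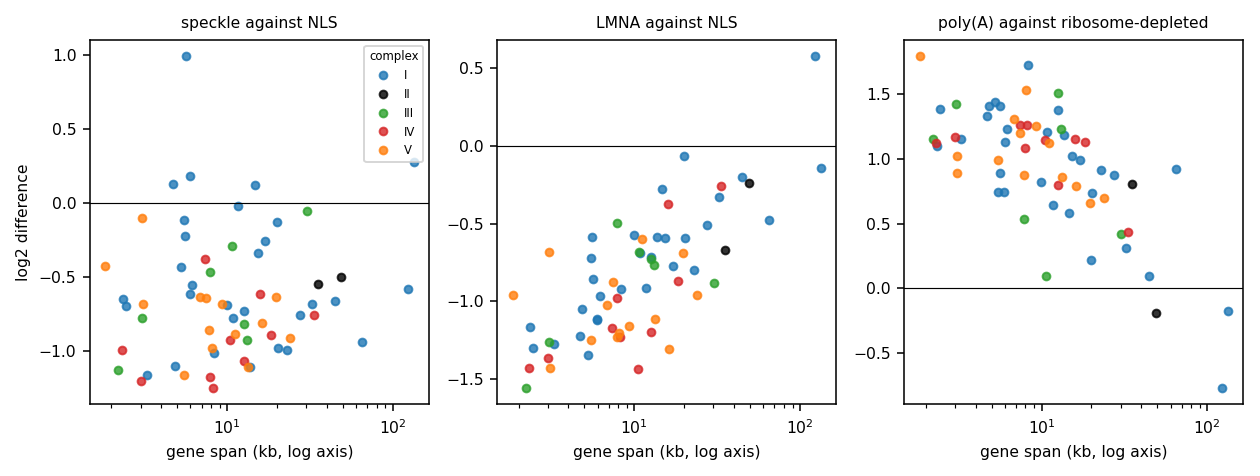
Log2 difference against gene span (kb, log axis) for the 63 tested members, coloured by complex, in speckle against NLS (left), LMNA against NLS (middle) and poly(A) against ribosome-depleted SRSF7 pulldowns (right). Short members are lowest in the middle panel and highest in the right panel, and the left panel has no such slope (r = 0.088). Bait and library set cannot be told apart in the middle panel.

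Other genes of the pathway did not all move this way in speckle against NLS. Of 14 tested complex I assembly factors 2 were lower and 2 higher: NDUFAF4 (-0.76) and TIMMDC1 (-0.48) were lower, and ACAD9 (0.77) and NDUFAF7 (0.52) higher. Of 18 tested complex IV assembly factors, 3 were lower and 2 higher, with COX17, a copper chaperone, at -0.60 and COX19 at 1.11. For complex III assembly, BCS1L, which inserts the Rieske protein, had 1.15 and LYRM7 -0.97, 1 of 6 in each direction. Of 3 ATP synthase assembly factors TMEM70 (-0.87) and ATPAF1 (-0.61) were lower and ATPAF2 (0.66) higher. Of 3 tested complex II assembly factors, SDHAF3 (-0.84) was lower. The list medians were -0.07, -0.20, 0.07, -0.61 and -0.38, beside -0.68 for the subunits.

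Among 14 genes of electron carriers and coenzyme Q synthesis, 4 were lower, CYCS (cytochrome c, -0.61) among them, and 2 higher. Pyruvate dehydrogenase and citric acid cycle genes had 4 of 18 lower and 2 higher, with IDH3G at 1.15 and DLAT at -0.75. The import machinery had 12 of 24 lower and 2 higher, led by TOMM20 (-1.02) and TOMM7 (-0.80). Of 12 regulators of mitochondrial biogenesis 3 were lower, TFAM (-0.86), GABPB1 (-0.50) and GABPA (-0.55), and PPRC1 (0.88) was higher.

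Ribosomal protein genes, which encode the translation machinery, were followed beside them. Of 81 tested cytosolic ribosomal proteins 54 were lower and 1 higher in speckle against NLS (median -0.89), and of 70 mitochondrial ones 28 and 2 (median -0.44). In LMNA against NLS the cytosolic ones had 70 lower (median -1.33) and the mitochondrial ones 36 (median -0.69). In poly(A) against ribosome-depleted RNA 77 of 80 and 54 of 70 were higher. No test compared these lists with the respiratory chain. The 13 mitochondrially encoded subunits, partners of the members inside the organelle, were all lower than input in the SRSF1 pulldown (13 of 13, median -3.82) and in the mean of the 5 set II baits (13 of 13, median -3.17). In speckle against NLS 1 of 13 was lower, MT-CO2 (edgeR adjusted p = 0.0391), at a median of -0.71.

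Not all members could be measured. SDHA, ATP5MF, COX8A, NDUFC2, ATP5MG, NDUFA9, NDUFA7, UQCR11, ATP5PO and ATP5MGL were listed at 0 in all 56 libraries, and NDUFB8, SDHD, COX6A1, NDUFV2, NDUFA11 and NDUFA13 had at most 12 counts in a library. Several encode abundant proteins, SDHA among them, the catalytic flavoprotein of complex II, so a listed 0 says nothing of expression. A RefSeq gene overlaps 6 of these 16 spans and 27 of the 63 tested ones. The row NDUFC2-KCTD14 held 12 to 83 counts and NDUFV2-AS1 24 to 149, while ATP5MF-PTCD1 held 0 to 10. Of the 79 members 47 have a pseudogene row of their name, 161 rows in all, and reads can be split between near-identical copies.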

How the data were processed

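Gene counts of 56 libraries, and of 4 more in a second table, were used as the authors deposited them. Per the submitters' processing notes, reads were processed with STAR 2.7.4a and featureCounts on hg38; for the annotation, the featureCounts version and the strand setting, nothing was given in the sources used here. Of 60591 rows in each file, 1 with a cell that is no number was left out. Samples were grouped by bait and by input or pulldown, as the labels give them.

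Counts were tested with edgeR 4.0.16 (R 4.3.3, limma 3.58.1): TMM scaling, filterByExpr, and a robust quasi-likelihood fit over all 28 groups of 2, with Benjamini-Hochberg adjustment over 23681 genes (28 residual degrees of freedom; 18641 genes and 2 in the second table). Adjusted p under 0.05 was called. A value against NLS is an interaction, pulldown over input of the bait minus that of NLS. The fit was tested on simulated data.

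Members and gene lists were chosen with earlier results of these data known. Values in every library are given for the members at the ends of each complex (mean CPM of 5 or more), the SDH genes, up to 2 members per complex with the smallest p in speckle against NLS, and members called against the trend; some others were chosen after their values were seen. The labels number pulldown and input replicates alike. Like-numbered pulldowns and inputs shared little deviation from their group means (correlations from -0.081 to 0.081), and the main fit did not pair them. Alternatives were DESeq2 1.42.0, its size factors, total counts, no filter beyond 1 count, a replicate block, libraries left out, and pulldowns alone inside 1 library set. With 1 library left out, 1 group kept 1 library, and calls over all genes were not counted. Such counts of members, and those under other scalings given with no share, cannot be set against all genes here. Library sets were told from counts (at least 100 of RPS14P8 for set I, at most 1 of RPS3AP21 for set III), and not from labels.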

Additional observations from a re-analysis of the deposited data

Results flagged for a closer look

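Effects that differed between baits by the test of the difference itself (edgeR interaction terms, adjusted p under 0.05) were counted over the 63 tested members, in either direction. The speckle baits differed from NLS in 40 members, LMNA in 43, SAM68 in 5, NPAT and FBL in 4 each, SMN2 in 3, and the PML body baits and WRAP53 in 2 each. The speckle baits differed from LMNA in 21. Over all genes the shares lower and higher were 7.45% and 11.5% (speckle), 8.56% and 7.14% (LMNA), 7.8% and 12% (SAM68), 3.05% and 1.16% (NPAT), 0.262% and 0.422% (FBL), 2.1% and 4.23% (SMN2), 1.9% and 1.04% (PML body), 3.06% and 5.22% (WRAP53), and 15.4% and 21.1% (speckle against LMNA). In both directions together, the members' share was below that of all genes for SAM68, SMN2, WRAP53 and speckle against LMNA, and near it for the PML body baits, so those counts do not set the members apart. The comparisons with NLS share its libraries, and the LMNA pulldowns lie in a library set of their own with GFP, so bait and set cannot be told apart there.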

How the results depend on the processing

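No named call turned its direction under the alternatives run, while medians near 0 did: with total counts NLS went from -0.04 to 0.16 and SAM68 against NLS from 0.04 to -0.40, with DESeq2's size factors SAM68 went from -0.04 to 0.03 and WRAP53 against NLS from -0.01 to 0.02, with DESeq2's Wald test to 0.03 and 0.01, and with no filter beyond 1 count SAM68 against NLS went to -0.03. Counts of members lower that moved by over 1.5 times were as follows. With total counts in place of TMM they were 21 (SRSF7), 22 (SAM68), 4 (PML), 16 (FBL), 13 (SAM68 against NLS), 2 (WRAP53 against NLS) and 2 (speckle against LMNA). With DESeq2's size factors they were 4 (PML), 1 (SMN2 against NLS) and 2 (NPAT against NLS), and with DESeq2's Wald test 4 (PML). With no filter beyond 1 count they were 10 (NLS), 1 (SMN2 against NLS) and 1 (speckle against LMNA). With the replicate number as a block they were 1 (SMN2 against NLS), 2 (NPAT against NLS) and 1 (FBL against NLS), and the block moved no other count that far. Without the inputs FBL 1 and NPAT 1 they were 8 (SP100), 13 (NLS), 3 (SAM68 against NLS), 4 (SMN2 against NLS), 3 (WRAP53 against NLS), 2 (NPAT against NLS), 0 (FBL against NLS) and 8 (speckle against LMNA). With pulldowns alone in set II they were 3 (PML body), 4 (SAM68), 14 (SMN2), 13 (WRAP53), 18 (NPAT) and 35 (FBL), each against NLS. With baits within set II only, an alternative chosen after seeing the data, PML against NLS had 0. The cause was not tested.

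With 1 library left out, members lower than input ranged from 18 to 41 (SRSF7), 49 to 53 (SRSF1), 39 to 44 (RNPS1), 11 to 13 (SAM68), 4 to 4 (PML), 3 to 5 (SP100), 5 to 12 (SMN2), 3 to 9 (WRAP53), 15 to 26 (NPAT), 15 to 28 (FBL), 40 to 55 (LMNA), 4 to 6 (NLS), 44 to 54 (GFP) and 4 to 8 (FLAG). Against NLS they ranged from 25 to 40 (speckle), 17 to 47 (LMNA), 0 to 1 (PML body), 1 to 1 (SAM68, SMN2 and WRAP53), 1 to 10 (NPAT) and 0 to 13 (FBL), and in speckle against LMNA from 2 to 6. Members higher in poly(A) RNA ranged from 56 to 57. Of the named members' calls, 215 held and 13 were lost with DESeq2's Wald test, and 1052 held and 224 were lost over the libraries left out. With other scalings the splits of lower and higher were 8 and 2 (FLAG), 6 and 6 (NLS), 9 and 3 (WRAP53), 3 and 0 (SMN2 against NLS) and 2 and 0 (WRAP53 against NLS), all with total counts.

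Groups of 2 libraries and the library sets limit these comparisons; 16 members had too few counts to test.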

Other observations

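Tested members on chromosome 19, a grouping chosen after their values were seen and given with no test, were ATP5F1D, NDUFS7, NDUFB7, UQCRFS1, COX6B1 and NDUFA3. In FLAG their median was -0.82 with 5 of 6 lower, beside -0.20 with 7 of 57 lower on other chromosomes. Of all genes, 9.21% were lower with FLAG. The 6 members span from 3.075 kb (ATP5F1D) to 11.678 kb (NDUFS7). Coding genes under 5, 5 to 10 and 10 to 30 kb were lower with FLAG in 29.9%, 25.6% and 19.3%. The part of gene length in these values was not tested. In SP100 the medians were -0.44 and 0.37, and in speckle against NLS -0.28 and -0.69.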
